A study of Mus musculus with 9 samples.

Results

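The annexin genes of the mouse heart were described here in animals given oxaliplatin or vehicle. The genes were chosen by symbol from a list of 10 annexins, of which 9 (Anxa1 to Anxa8 and Anxa11) were among the 13795 genes of the deposited table, and Anxa9 was not analysed here. The family was put forward with its oxaliplatin-against-vehicle values in view, so those values are given as a description and are not evidence for a change of the family. Hearts of C57BL/6 mice were sequenced in 2 groups, 4 samples of vehicle and 5 of oxaliplatin, a platinum chemotherapy agent that crosslinks DNA, at 10 mg/kg. No genetic change, age, sex or dosing schedule is stated in the labels, and hearts were collected at week 8. Nothing says whether each sample was a separate animal, so the p-values below speak of sample-to-sample spread alone, and part of it may be technical.

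Annexins are proteins that bind phospholipids of membranes when calcium rises. Each has a core of repeats that holds the calcium and the lipid, and a variable head that binds partners, often small S100 proteins. In muscle they gather at torn membrane during repair, and outside the cell some bind phosphatidylserine, the lipid that dying cells expose, or the proteases that dissolve clots.

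Values are the authors' normalized counts per gene, which set the samples to a common scale but do not correct for gene length. Their sum per sample ran from about 29400000 to 36900000, and an estimated 28500000 to 36200000 reads lay behind it. All 12 cardiomyocyte markers were in the table, with summed counts of 1337700 to 2104400 per sample. Among the samples, 3 stood apart by a score of 8 atrial genes (the mean log2 value of the list, centred over all samples). That score was 2.64 in vehicle 1, 3.52 in oxaliplatin 2 and 3.01 in oxaliplatin 4, against -4.05 to 1.12 in the other 6 samples. Oxaliplatin 2 also had the highest score of the adipocyte list, at 4.65 against -2.67 to 0.79 elsewhere. Counts of called genes in the family and in each partner list are therefore also given without the 3 samples of high atrial score.

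The stretch before the annotated start of 3 members is shown here to set the members with the largest differences between the groups, Anxa2 and Anxa8, beside Anxa11, which did not pass the test. The sequences are from RefSeq on GRCm38.p6, read 5′ to 3′ in the direction of the gene, without bases of annotated exons. Capitals mark a match to the AP-1 motif TGANTCA.
Anxa2, chr9:69453433-69453619, plus strand: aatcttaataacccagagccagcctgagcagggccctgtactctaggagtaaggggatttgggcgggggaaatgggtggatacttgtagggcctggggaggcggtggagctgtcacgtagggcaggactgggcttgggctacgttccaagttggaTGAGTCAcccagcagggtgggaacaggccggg
Anxa8, chr14:34085729-34085978, plus strand: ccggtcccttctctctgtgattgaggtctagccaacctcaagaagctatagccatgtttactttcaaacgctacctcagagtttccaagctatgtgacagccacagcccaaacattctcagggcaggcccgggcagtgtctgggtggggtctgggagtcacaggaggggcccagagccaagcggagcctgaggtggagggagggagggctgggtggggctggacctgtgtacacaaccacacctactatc
Anxa11, chr14:25841905-25842154, plus strand: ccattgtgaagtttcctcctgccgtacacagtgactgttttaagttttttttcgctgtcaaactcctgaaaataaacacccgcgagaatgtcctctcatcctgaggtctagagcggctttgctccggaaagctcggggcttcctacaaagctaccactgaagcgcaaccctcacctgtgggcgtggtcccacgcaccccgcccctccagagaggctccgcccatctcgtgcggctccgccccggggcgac
Promoters of 7 members, 9 windows in all, were in the RefSeq table. The AP-1 letters, read on both strands within 250 bases before the start, were found in 1 of the 9 windows, that of Anxa2, with its first base at -95 from the start, and in 6.75% of all 32851 promoters. The TATA box letters TATAAA lay in the windows of Anxa1 and Anxa2, where the match starts at -17, and in 12.4% of all promoters. Both matches lie in bases annotated as exon, which fill the last 63 of the Anxa2 window and all 250 of the Anxa1 window. The letters GGGCGG, a core that SP1 binds, lay in 4 of the 9 windows, of Anxa2, Anxa7 and Anxa11, and in 32.7% of all promoters. GGAATG, a TEAD core, was found in the window of Anxa1 only, again in exon bases, and in 12.6% of all promoters. A match of these letters is a description and not a binding site.

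Of the 9 annexins, 6 were higher after oxaliplatin at an adjusted p under 0.05. These were Anxa1, Anxa2, Anxa3, Anxa4, Anxa5 and Anxa8, with log2 differences of 0.63 to 2.503. Anxa6, Anxa7 and Anxa11 did not pass. In bulk tissue, more or fewer cells of a type and more or less RNA per cell cannot be told apart. None was lower by limma, and 0 were lower at an unadjusted p under 0.05 either. The median log2 difference of the 9 was 0.82, beside -0.02 over all 13788 genes tested, and 8 of the 9 were above 0. Across all genes tested, 9.23% were higher and 5.03% lower by the same rule. The values of all samples lay apart, higher with oxaliplatin, in 6 members (Anxa1 to Anxa5 and Anxa7), beside 8.99% of all genes. No member had all its oxaliplatin values below the vehicle values, beside 5.93% of all genes. With quantile normalization the calls over all genes were 1151 higher and 965 lower (54.4% higher), against 1272 and 694 (64.7%) here. Differences were tested with limma on log2(normalized count + 1), two-sided, with Benjamini-Hochberg adjustment over all genes tested, and are given ± standard error on that scale. Adjusted p-values of the 6 ranged from 0.000461 (Anxa2) to 0.0382 (Anxa8). Without the 3 samples of high atrial score, 5 members were higher (8.05% of all genes), and Anxa8 was the one that did not pass.

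**Figure D1:**
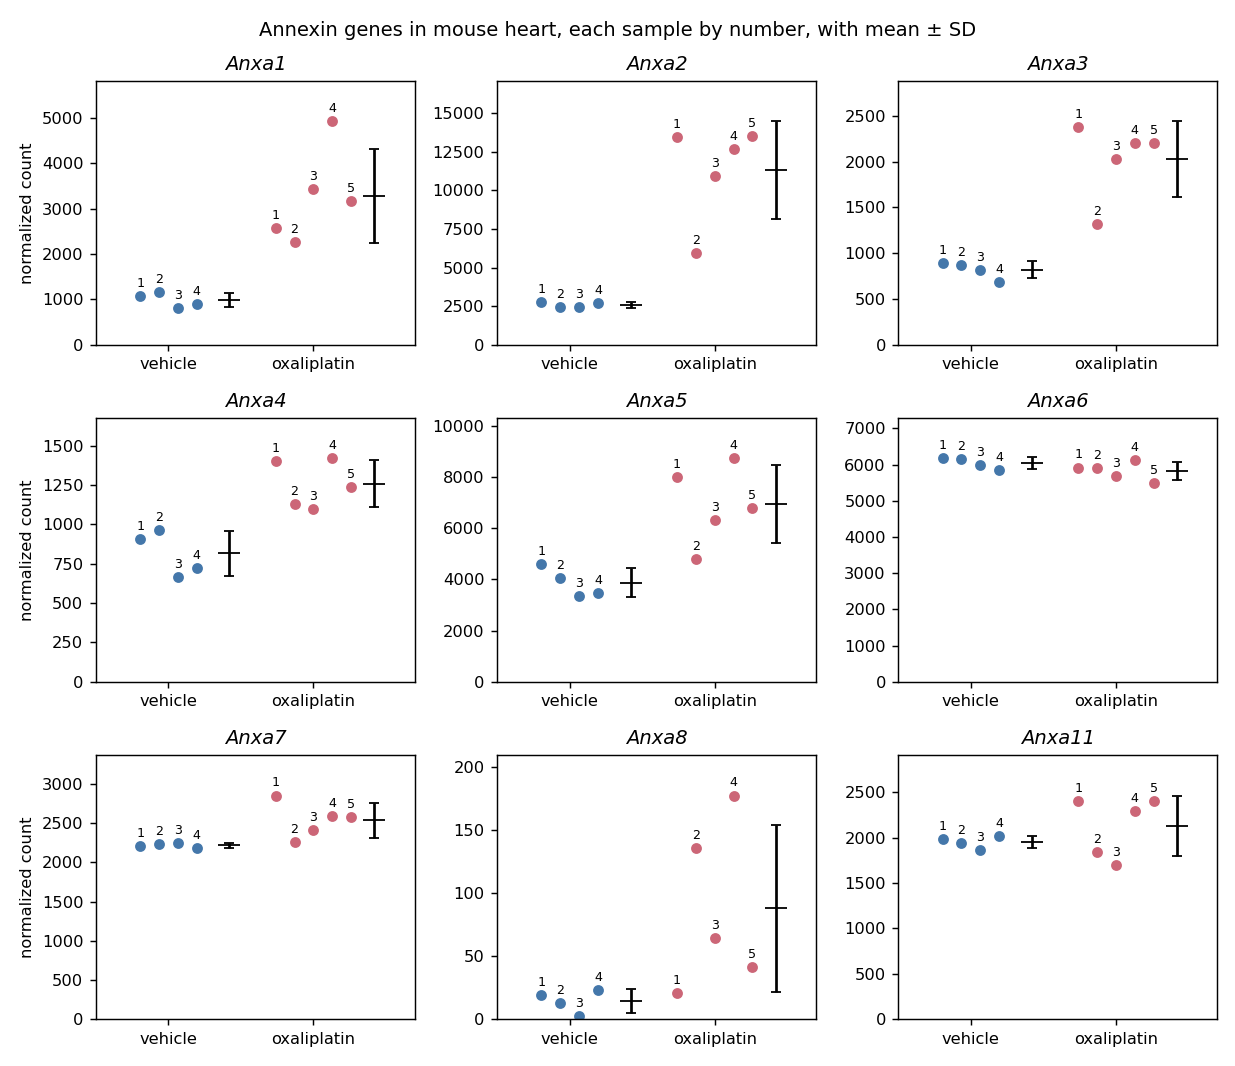
Normalized counts of the 9 annexins in each sample (vertical axis, one panel per gene) for vehicle and oxaliplatin, with sample numbers and mean ± SD. Anxa1 to Anxa5 and Anxa7 show no overlap between the groups, and Anxa6, Anxa8 and Anxa11 do.

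Annexin A2 joins the S100 protein S100A10 in a cell-surface complex that binds tissue plasminogen activator and plasminogen. Its gene, Anxa2 (chr9:69453620-69491795, plus strand, GRCm38), was at 2734, 2444, 2410.4 and 2729 in vehicle 1 to 4, and at 13441, 5923, 10949, 12686 and 13513 in oxaliplatin 1 to 5. Every oxaliplatin value was above every vehicle value, with oxaliplatin 2 the lowest of the treated samples. The mean rose from 2579 ± 176 (SD, n = 4) to 11302 ± 3179 (SD, n = 5), a log2 difference of 2.07 ± 0.21 and a fold of means of 4.38.

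Annexin A1 mediates part of the anti-inflammatory action of glucocorticoids through formyl peptide receptors. Anxa1 (chr19:20373428-20390944, minus strand) was at 1071, 1165, 802 and 905 in vehicle 1 to 4 and at 2569, 2255, 3442.5, 4928 and 3178 in oxaliplatin 1 to 5. The groups did not overlap, and oxaliplatin 4 was highest. The mean rose from 986 ± 163 (SD, n = 4) to 3275 ± 1038 (SD, n = 5), a log2 difference of 1.69 ± 0.20. Annexin A3 is known for roles in vessel growth and as a phospholipase inhibitor in vitro. Anxa3 (chr5:96793339-96845966, plus strand) was at 893, 875, 820 and 687 in vehicle, and at 2379, 1318, 2030.5, 2199 and 2203 in oxaliplatin. The groups were apart, oxaliplatin 2 being the lowest treated sample as for Anxa2, and the log2 difference was 1.28 ± 0.16.

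Annexin A5 binds exposed phosphatidylserine with high affinity and forms a shield that keeps clotting factors from membranes. Anxa5 (chr3:36448923-36475894, minus strand) was at 4604, 4068, 3367 and 3468 in vehicle, and at 8019, 4816, 6329, 8731 and 6799 in oxaliplatin. The ranges came close, with oxaliplatin 2 just above vehicle 1, and the log2 difference was 0.82 ± 0.17. Annexin A4 regulates calcium-dependent ion transport and adenylyl cyclase. Anxa4 (chr6:86736840-86793584, minus strand) was at 909, 963, 666 and 722 in vehicle and at 1405, 1128, 1098, 1419 and 1240.1 in oxaliplatin. The groups did not overlap, and the log2 difference was the smallest of the 6 that rose, at 0.63 ± 0.14.

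Annexin A8 is known from epithelial cells and as a blocker of clotting. Anxa8 (chr14:34085981-34100571, plus strand) was low, at 19.1, 12.3, 2.15 and 23.2 in vehicle and at 20.3, 136, 63.9, 177 and 41.2 in oxaliplatin. The groups overlapped, and the 2 highest values were in the oxaliplatin samples of high atrial score. The vehicle values rest on an estimated 16, 11, 2 and 23 reads, and the oxaliplatin values on 17, 154, 73, 218 and 46. Its log2 difference was 2.503 ± 0.72 (adjusted p = 0.0382, limma). The call was lost on leaving out any 1 of vehicle 2 (adjusted p = 0.0867, limma), vehicle 3 (0.0945), oxaliplatin 2 (0.0543), oxaliplatin 3 (0.0702), oxaliplatin 4 (0.0779) or oxaliplatin 5 (0.0501). Without the 3 samples of high atrial score the log2 difference was 1.95 (adjusted p = 0.115, limma). Each gene in the table reached at least 40.6 in some sample, and no vehicle value of Anxa8 did, so its place among the members measured depends on the oxaliplatin samples.

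Annexin A6 has a duplicated core and is abundant in heart muscle, where it gathers at damaged sarcolemma. Anxa6 (chr11:54979108-55033445, minus strand) was at 6170.5, 6163, 5988 and 5845 in vehicle and at 5918, 5918, 5684, 6117 and 5482 in oxaliplatin. The groups overlapped, with a log2 difference of -0.05 ± 0.10. Annexin A7, or synexin, takes part in calcium handling and membrane fusion. Anxa7 (chr14:20455260-20480133, minus strand) was at 2211, 2231, 2245 and 2180.3 in vehicle and at 2855, 2259.9, 2409, 2593 and 2577 in oxaliplatin. Its groups did not overlap, by a margin that was small for oxaliplatin 2, but the log2 difference of 0.19 ± 0.10 did not pass. Annexin A11 binds RNA granules and the calcium-sensing protein ALG-2. Anxa11 (chr14:25842156-25886804, plus strand) was at 1984, 1942, 1862 and 2023 in vehicle and at 2404, 1846, 1699, 2297 and 2408 in oxaliplatin, with overlapping groups and a log2 difference of 0.11 ± 0.12. Exons of Anxa2, Anxa4 and Anxa11 share 75 to 113 bases with an annotated antisense gene, and those of Anxa3 share 112 with a gene on the same strand. Whether the counting used strand is not stated, and reads of those bases cannot be assigned to one gene or the other.

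**Figure D2:**
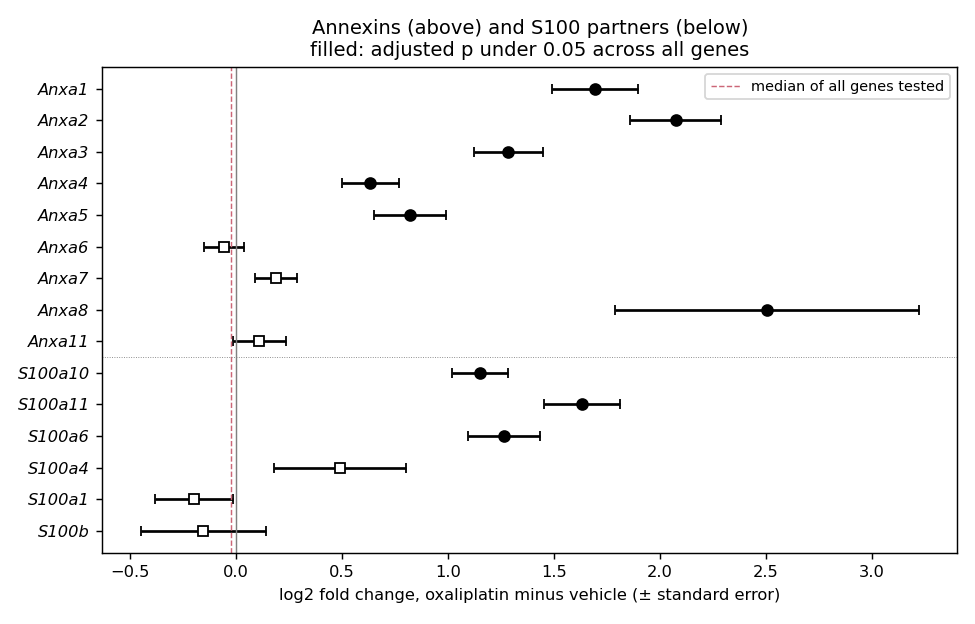
Log2 fold change, oxaliplatin minus vehicle, with standard error (horizontal axis) for the annexins and below them the S100 partners. Filled points passed at an adjusted p under 0.05 across all genes, and the dashed line is the median of all genes tested (-0.02).

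The spread between samples also differed among members. The coefficient of variation in vehicle ran from 1.26% for Anxa7 and 2.58% for Anxa6 to 17.6% for Anxa4, leaving Anxa8 aside at 64.8%. In oxaliplatin samples it was 31.7% for Anxa1 and 28.1% for Anxa2, and 4.20% for Anxa6. Among treated samples oxaliplatin 2 was the lowest for 5 members and oxaliplatin 4 the highest for 5. Vehicle 3 was the lowest vehicle sample for 6 of 9.

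Levels were compared between genes per kilobase of exon (union of exons in the GENCODE M21 annotation). In vehicle, Anxa5 at 2182 ± 324 and Anxa6 at 2062 ± 53.2 (SD, n = 4) led, with overlapping ranges. Below them came Anxa2 at 691 ± 47.3, then Anxa11 at 472 ± 16.7, and these did not overlap. Anxa7 at 370.0 ± 4.66 and Anxa1 at 339 ± 56.0 overlapped, as did Anxa3 at 225 ± 25.6 and Anxa4 at 175 ± 30.9. Anxa8 was at 7.55 ± 4.89. In oxaliplatin samples the order was Anxa5 at 3905 ± 857, Anxa2 at 3029 ± 852 and Anxa6 at 1988 ± 83.5 (SD, n = 5), each overlapping the next in range. Anxa2 was above Anxa6 in 4 of 5 oxaliplatin samples and below it in all 4 vehicle samples. Anxa1 (1125 ± 357), Anxa3 (556 ± 114), Anxa11 (515 ± 80.8), Anxa7 (424 ± 37.2) and Anxa4 (271 ± 32.3) followed, with Anxa3 overlapping Anxa11, and Anxa11 overlapping Anxa7. Anxa8 was again last, at 46.6 ± 35.2. Sample by sample, Anxa5 was above Anxa2 and Anxa11 above Anxa7 in all 5 oxaliplatin samples, and Anxa3 above Anxa11 in 4. In vehicle, Anxa3 was above Anxa4 in all 4 samples, Anxa7 above Anxa1 in 3 and Anxa5 above Anxa6 in 2.

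**Figure D3:**
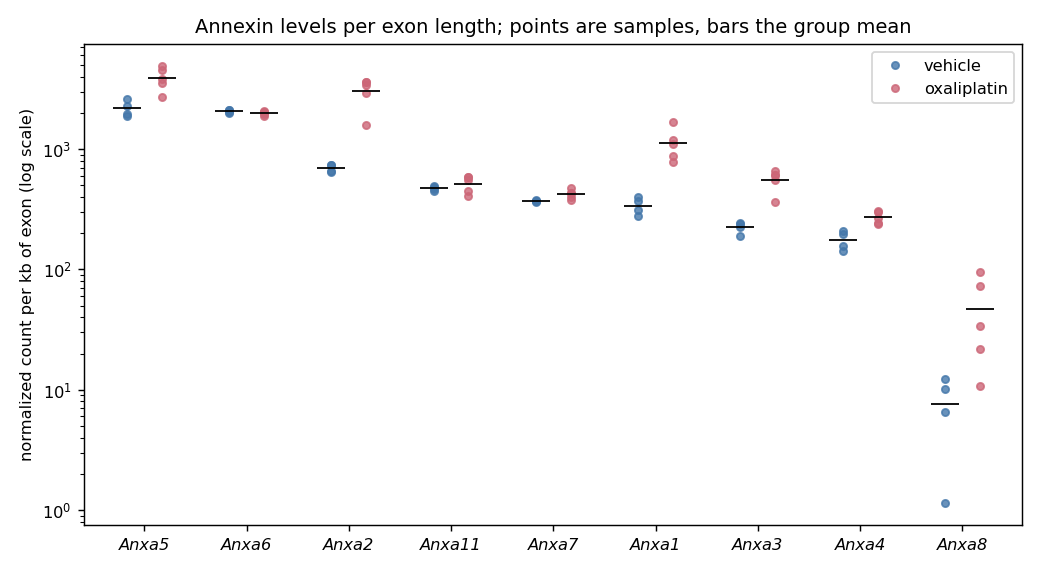
Normalized count per kilobase of exon (vertical log axis) for each annexin, points being samples and bars the group mean. Anxa2 moves from the third rank in vehicle to the second in oxaliplatin, near Anxa5.

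The 9 genes summed to 6523 ± 484 per kilobase in vehicle (SD, n = 4) and to 11860 ± 2098 in oxaliplatin (SD, n = 5). Of that sum Anxa2 took 10.6 ± 0.876% in vehicle and 25.1 ± 4.20% in oxaliplatin. Anxa6 took 31.7 ± 1.72% and 17.3 ± 3.62%. The shares of Anxa5 overlapped between the groups, at 33.3 ± 2.45% and 32.7 ± 1.84%. The ratio of Anxa2 to Anxa6 per kilobase was 0.348, 0.311, 0.316 and 0.367 in vehicle 1 to 4 and 1.78, 0.786, 1.51, 1.63 and 1.94 in oxaliplatin 1 to 5, so the groups were apart. These shares and ratios restate the same contrast and were not tested.

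The S100 proteins are small calcium sensors, and several bind annexin heads. S100A10 pairs with annexin A2, S100A11 with annexin A1, and S100A6 binds several members. Their genes are described with those of the family because of this pairing, and 3 of the 6 listed rose, beside 9.23% of all genes: S100a10, S100a11 and S100a6. The count was also 3 without the 3 samples of high atrial score. S100a10 was at 896, 928, 843 and 768 in vehicle and at 2113, 1436, 1854, 2046 and 2185 in oxaliplatin, a log2 difference of 1.15 ± 0.13. S100a11 was at 1455, 1415, 1241 and 1566 in vehicle and at 4726, 2822, 4077, 5711 and 5221 in oxaliplatin, a log2 difference of 1.63 ± 0.18. The groups of both were apart, with oxaliplatin 2 again the lowest treated sample. S100a6 had a log2 difference of 1.27 ± 0.17, and the adjusted p-values of the 3 were 0.000545, 0.000461 and 0.000883 (limma). S100a4 (0.49), S100a1 (-0.20) and S100b (-0.15) did not pass. The Anxa2 to S100a10 ratio per kilobase was 0.982 ± 0.127 in vehicle and 1.87 ± 0.301 in oxaliplatin (SD, n = 4 and 5), with no overlap. The Anxa1 to S100a11 ratio was 0.122 ± 0.0188 and 0.129 ± 0.0256, with overlapping groups.

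Within the groups, 42 of the 54 pairs of an annexin and an S100 gene had a correlation above 0 from sample to sample, and few passed a test. Log2 values were centred on each group's mean and correlated over the 9 samples, with exact two-sided permutation within groups (2880 orders), a check added after seeing the data. Pearson's r of Anxa3 with S100a10 was 0.969 (exact permutation p = 0.00243, adjusted 0.0328 over 54 pairs of annexin and S100 gene) and Spearman's rho was 0.917 (p = 0.00313, adjusted 0.0656). It was 0.801 without the 2 samples farthest from the median of S100a10. For Anxa5 with S100a6, r was 0.886 (exact permutation p = 0.00174, adjusted 0.0328) and rho was 0.95 (p = 0.000347, adjusted 0.0187, the smallest p these orders can give), and r was 0.808 without 2 such samples. Anxa2 with S100a10 had r of 0.874 (exact permutation p = 0.0372, adjusted 0.143) and rho of 0.733 (p = 0.0479, adjusted 0.199), which did not pass after adjustment. Of the 54 pairs, 4 passed by Pearson's r and 1, Anxa5 with S100a6, by Spearman's rho. The other two by r were pairs of Anxa8, the member of few reads. Anxa8 with S100a4 had r of 0.867 (exact permutation p = 0.00208, adjusted 0.0328), rho of 0.933 (p = 0.00382, adjusted 0.0656) and r of 0.874 without 2 such samples. Anxa8 with S100b had r of 0.936 (exact permutation p = 0.00208, adjusted 0.0328), rho of 0.917 (p = 0.00486, adjusted 0.0656) and r of 0.754 without 2 such samples. Some pairs ran the other way, such as Anxa8 with S100a1 (r of -0.774, exact permutation p = 0.0229, adjusted 0.112, and rho of -0.667, p = 0.0771, adjusted 0.261). Among the 36 pairs of members, 31 had r above 0 and the median was 0.507, but 0 passed the adjustment and 4 had an unadjusted exact permutation p under 0.05. Neither this count above 0 nor the 42 of 54 was compared with pairs of other genes.

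The genes whose centred values were most like those of a member were ranked over 9 samples among 10678 genes of mean at least 100. For Anxa2 they were Acer2, Ifngr1 and Apod, with r of 0.995, 0.975 and 0.974. For Anxa1 they were Pmp22, Qpct and Ass1, with r of 0.962, 0.958 and 0.956. For Anxa5 they were Aldh3b1, Cd63 and Arfgap3, with r of 0.976, 0.961 and 0.959, and for Anxa6 Rpl3-ps1, Galk2 and Slc35a2, with r of 0.949, 0.936 and 0.935. These are the highest of many values, given as a description without a p. Anxa2 was at 5923 in oxaliplatin 2 against 10949 to 13513 in the other oxaliplatin samples, and Ifngr1 was at 2589 against 3752 to 4161. Ass1 and Anxa1 were both highest in oxaliplatin 4. How far such r values rest on 1 sample was not tested.

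Several marker lists, of cell types or of proliferation, differed between the groups beside the annexin values, and others did not. The counts of genes called in each list stand beside 9.23% of all genes higher and 5.03% lower. The largest median log2 difference was in the proliferation list, at 3.32, with 9 of 10 genes higher. Its summed counts were 414 to 828 in vehicle and 769 to 4028 in oxaliplatin, Bub1 being at 0 in some sample. Scores of the list did not overlap, and 83.9% of their variance lay between the groups. Each gene in the table reached at least 40.6 in some sample. Vehicle means were 1.97 (Bub1), 6.34 (Ccna2), 8.82 (Plk1), 11.1 (Birc5), 15.9 (Ccnb1) and 18.5 (Aurkb). The place of these genes in the table depends on the oxaliplatin samples, so the calls and scores of the list are partly fixed by it. The summed counts of 10 endothelial genes were 18844 to 20078 in vehicle and 23982 to 37466 in oxaliplatin, without overlap, 3 of the 10 rose and all 10 were above 0 on the log2 scale. The sums of 10 epicardial and mesothelial genes were 306 to 1097 and 2755 to 5472, also apart, with 4 that rose and Krt8 and Muc16 at 0 in some sample. Sums of 10 fibroblast genes were 25787 to 36514 and 31187 to 81658 and overlapped, with 2 that rose. Smooth muscle and pericyte sums were 15051 to 22127 and 22016 to 38021, with 2 of 10 genes higher. Of 9 lymphocyte genes 2 were in the table, Cd79a and Cd79b, both of B cells, and no listed T cell gene was. Both fell, with sums of 71.0 to 158 in vehicle and 11.9 to 34.3 in oxaliplatin. Neither reached 40.6 in an oxaliplatin sample, so their place in the table depends on the vehicle samples. The 8 erythroid genes had a median log2 difference of -2.79, 0 passed by limma and 6 were lower at an unadjusted p under 0.05. Their scores overlapped, with oxaliplatin 3 above every vehicle sample. By summed counts oxaliplatin 3 (358240) was above vehicle 3 (221400) and vehicle 4 (274160) and below vehicle 1 (570590) and vehicle 2 (545390). Macrophage scores overlapped, with 1 of 10 genes higher, 1 lower and 1.17% of the variance between the groups. All 12 cardiomyocyte genes had log2 differences below 0, and 3 of them fell by the test, with sums of 1714100 to 2104400 in vehicle and 1337700 to 1799200 in oxaliplatin. The part of these lists in the annexin differences was not tested. When a marker score was added to the fit as a covariate, the number of members higher was 4 with the erythroid score (5.85% of all genes), 3 with the fibroblast score (3.05%), 1 with the epicardial score (0.493%) and 0 with the endothelial score (0%). The epicardial and endothelial scores do not overlap between groups, so a fit cannot separate them from treatment. With the endothelial score, limma called 0 genes in all, and at an unadjusted p under 0.05 called 443 higher and 597 lower, among them 2 annexins higher. Within groups, Anxa2 followed the endothelial score with r of 0.98 (exact permutation p = 0.00278, adjusted 0.264 over 117 relations of member and score) and rho of 0.95 (p = 0.00486, adjusted 0.365), and r of 0.918 without the 2 farthest samples. None of the 117 passed the adjustment, and 13 had an unadjusted exact permutation p under 0.05.

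**Figure D4:**
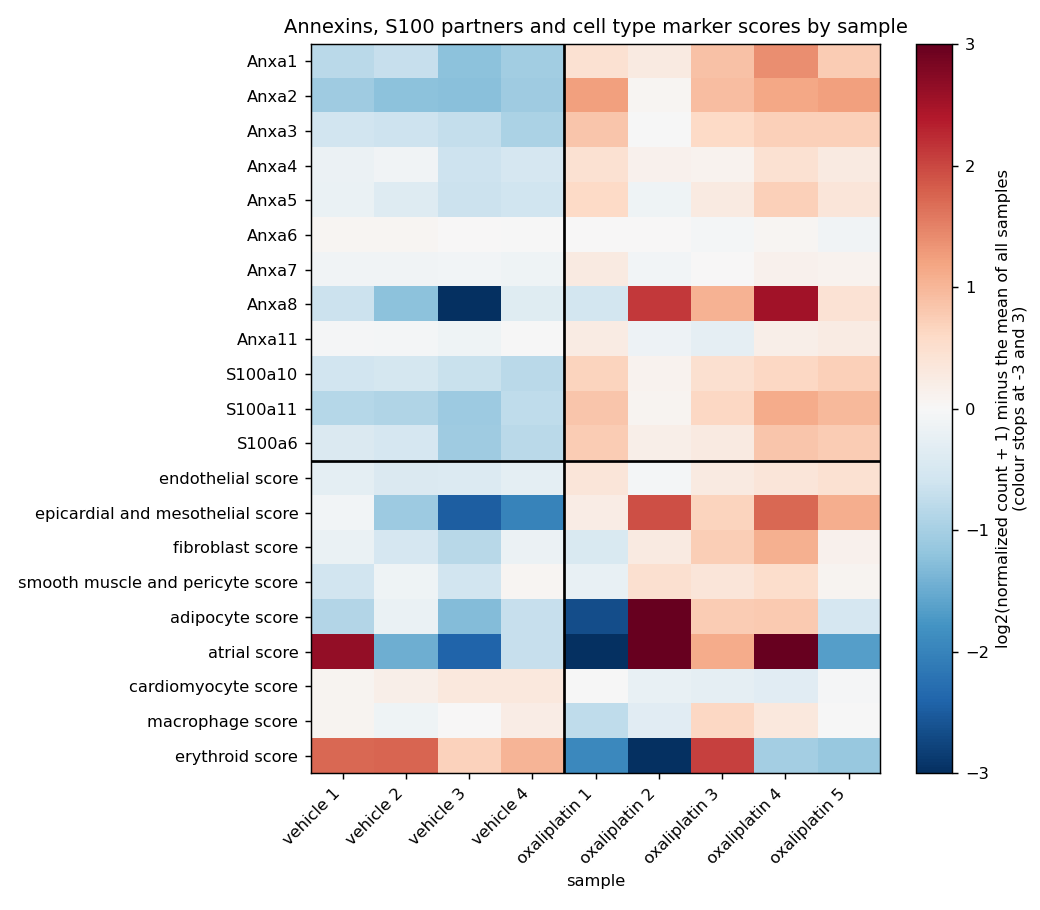
Log2(normalized count + 1) minus the mean of all samples (colour) for annexins, S100 partners and marker scores (rows) in each sample (columns, vehicle left of the line). For Anxa1 to Anxa5 each oxaliplatin sample is above each vehicle sample, and the atrial row is high in vehicle 1, oxaliplatin 2 and oxaliplatin 4.

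Genes of pathways that annexins act in were taken from lists of textbook partners. Over the 58 genes tested, 18 were higher and 4 lower, beside 9.23% and 5.03% of all genes, with a median log2 difference of 0.33. Without the 3 samples of high atrial score, 14 were higher and 4 lower, beside 8.05% and 3.52% of all genes. Leaving out vehicle 3 left 11 higher and 2 lower, beside 789 and 321 of all 13788 genes. Leaving out vehicle 2 left 2 lower, beside 373 of all genes. Membrane repair had 4 of 19 higher and 1 lower: Ehd2 (0.97 ± 0.20) and Cavin1 (0.68 ± 0.14), both of caveolae, the ferlin Myof (0.80 ± 0.23) and the calpain Capn2 (0.53 ± 0.16) rose, and the ferlin Dysf fell by 0.52 ± 0.13. Leaving out any 1 of vehicle 1, 2 or 3 or oxaliplatin 3, 4 or 5 left 2 higher, and Dysf was not called without vehicle 2 or vehicle 3. Without the 3 samples of high atrial score the list again had 4 higher and 1 lower. Of the plasmin and fibrinolysis genes, 4 of 6 rose. These were Plaur (1.80 ± 0.31), the urokinase receptor, Plat (1.60 ± 0.22), tissue plasminogen activator, Plau (1.23 ± 0.34), urokinase, and Thbd (0.46 ± 0.12), a thrombin cofactor of vessel walls. Plat was at 742, 662, 595 and 628 in vehicle and 2263, 1096, 2152, 2738 and 2114 in oxaliplatin, without overlap. Without vehicle 3, and without the 3 samples of high atrial score, Plau and Thbd did not pass. Plau was at most 26.2 in vehicle, below the 40.6 that each gene in the table reached in some sample. Its place in the table therefore depends on the oxaliplatin samples.

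Of 15 genes for exposing or recognizing phosphatidylserine, 4 rose and 2 fell, beside 9.23% and 5.03% of all genes. The scramblase Ano6 (0.88 ± 0.12), the bridging proteins Pros1 (1.07 ± 0.15) and Mfge8 (0.68 ± 0.13) and the receptor Mertk (0.59 ± 0.17) rose. The receptor Timd4 fell by 3.81 ± 0.71, from 24.6 to 82.5 in vehicle to 0 to 7.88 in oxaliplatin. No oxaliplatin value of Timd4 reached 40.6, so its place in the table depends on the vehicle samples. The flippase Atp8a1 fell by 0.52 ± 0.12. Mertk was not called without vehicle 1, 2 or 3 or oxaliplatin 3, 4 or 5, nor without the 3 samples of high atrial score (adjusted p = 0.229, limma), which left 3 higher and 2 lower. Annexin A1 acts through formyl peptide receptors and eicosanoids. Of the 10 genes listed, 6 were tested, and the glucocorticoid-induced Tsc22d3 was higher (0.61 ± 0.17) and Alox5, of leukotriene synthesis, was lower (-1.04 ± 0.31). Tsc22d3 was not called without vehicle 3 or oxaliplatin 3, 4 or 5, and Alox5 was not without vehicle 2, 3 or 4 or oxaliplatin 1, 4 or 5. Without the 3 samples of high atrial score the list again had 1 higher and 1 lower, but Tsc22d3 was not the gene called (adjusted p = 0.0515, limma). Copines also bind membranes in a calcium-dependent way. Of 6 tested, Cpne8 (0.74 ± 0.16) and Cpne1 (0.46 ± 0.13) rose, and leaving out any 1 of 7 samples (all but vehicle 4 and oxaliplatin 2), or the 3 samples of high atrial score, left 1 higher.

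**Figure D5:**
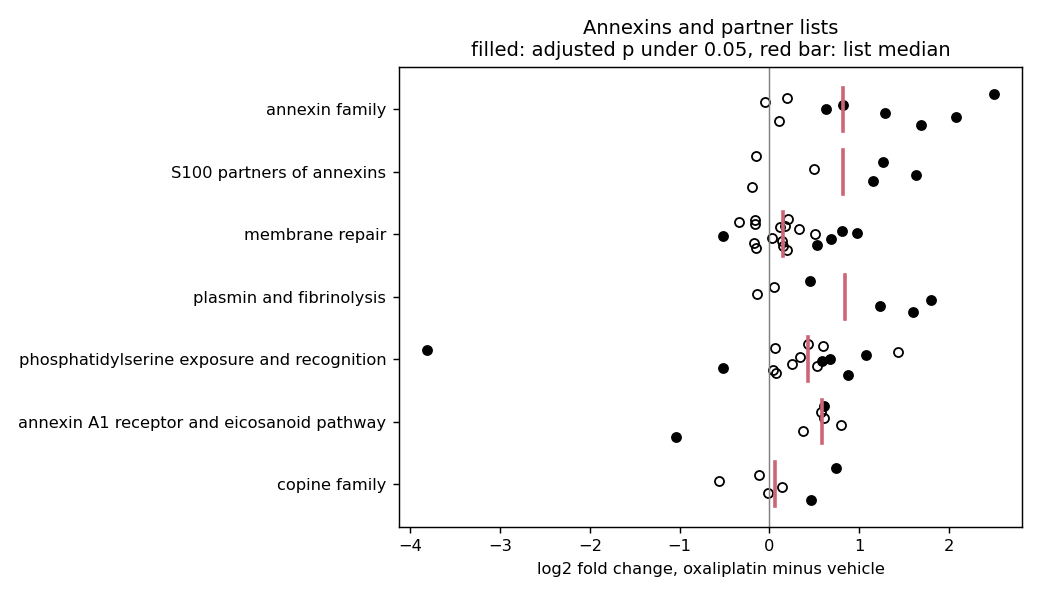
Log2 fold change, oxaliplatin minus vehicle (horizontal axis), of each gene in the annexin family and the 6 partner lists. Filled points passed at an adjusted p under 0.05 and the red bar is the list median, 0.82 for the annexins.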

How the data were processed

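RNA-seq of mouse heart gave 1 table of normalized counts, a signal per gene and sample that the authors deposited for 13795 gene symbols; per the file headers it is a normalized gene count. The submitters' processing notes list STAR 2.5.1a, Partek and DESeq2 with no role given, and the build, normalization step and strand setting are not stated in any label or header read here. Reads were estimated from the spacing of low values, but only 73.0% to 75.9% of values came within 0.02 of whole reads, so no count test was run.

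Groups come from the titles. limma 3.58.1 in R 4.3.3 (trend and robust moderation) compared log2(normalized count + 1) over genes of mean at least 10. The scale understates differences of low genes. The pipeline was tested on simulated tables of 13788 genes and the same group sizes. It recovered 26% of 1.5-fold, 67.5% of 2-fold, 91% of 4-fold and 96.5% of 8-fold changes. Each simulated table had 200 changed genes and noise drawn independently for each gene. The real comparison called 1272 genes higher and 694 lower, and its samples share variation across genes, so these rates may not hold for it. Exon lengths and positions come from GENCODE M21 (GRCm38), and correlations and tables were made in Python 3.11.15 with pandas 2.3.3.

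The members and lists were chosen with earlier results of these data known. Named were all members measured, in each partner list up to 4 of smallest p among those that passed (2 where none did), and 3 genes most like Anxa1, Anxa2, Anxa5 and Anxa6; Capn2, Mertk, Atp8a1 and the S100 genes that did not pass were named after their values were seen. Covariates of fibroblast, epicardial and endothelial score and the fit without oxaliplatin 2 and 4 were added after seeing the data.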

Additional observations from a re-analysis of the deposited data

Results flagged for a closer look

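The annexins, the partner genes picked by p and the genes most like a member were checked, 40 in all, and other genes named above were not. Of these 40, 3 had 1 sample far from the other samples of its group, by the gap to the nearest value over the group's range. Pros1 was at 649 in oxaliplatin 2 against 971 to 1045 in the other oxaliplatin samples. Ifngr1 was at 2589 in oxaliplatin 2 against 3752 to 4161, and Ass1 at 717 in oxaliplatin 4 against 385 to 474. Of 80 groups of values over 40 genes, 3 were marked and 0 were of an annexin, and chance marks about 1 in 20 such groups.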

How the results depend on the processing

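The count of annexins higher, 6, was within 1.5 times of that in 23 of 26 alternatives, and in these it was 4 to 6. Over all genes, 562 to 1975 were higher in these 23, against 1272 in the main fit. Leaving out 1 sample gave 5 to 6 annexins, beside 789 to 1505 of all genes. With the fibroblast, epicardial and endothelial score as covariate, 3, 1 and 0 annexins were higher, beside 3.05%, 0.493% and 0% of all genes. Partner genes higher, 18, were 11 to 21 on leaving out a sample, 11 at an adjusted p under 0.01, and 9, 2 and 0 with those covariates. Partner genes lower, 4, were 2 to 4 on leaving out a sample, 1 with the erythroid or fibroblast score, 1 at an adjusted p under 0.01 and 0 with the epicardial or endothelial score. Over all genes, 694 were lower in the main fit and 321 to 873 on leaving out a sample. At an adjusted p under 0.01, 562 of all genes were higher and 195 lower. With the erythroid, fibroblast, epicardial and endothelial score, 257, 269, 14 and 0 of all genes were lower. The sign turned for Anxa8 with the epicardial score (-0.19 on the log2 scale), and with the endothelial score for Anxa11 (-0.37), Anxa5 (-0.013), Anxa6 (0.0049) and Anxa7 (-0.077). The cause was not tested. Anxa8 did not pass in 13 of 24 alternatives and was not tested at a mean of at least 100. Same-numbered samples did not deviate together (r of -0.273, -0.0636, -0.0935 and 0.25). With the replicate block 6 annexins were higher, 0 lower, and 14 partner genes were higher and 3 lower. Over all genes that fit called 909 higher and 496 lower. Reads limit Anxa8 alone among the members.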

Other observations

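Anxa13, an annexin gene outside the listed members and named after its values were seen, was at 88.4, 90.5, 102 and 82.7 in vehicle 1 to 4 and at 100.4, 37.0, 81.5, 38.2 and 87.0 in oxaliplatin 1 to 5. The groups overlapped, and the log2 difference was -0.51 ± 0.31 (adjusted p = 0.294, limma). Its 2 low values were in oxaliplatin 2 and oxaliplatin 4, the treated samples of high atrial score, and the part of that score was not tested.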
